A study of Mus musculus with 2 samples.

Results

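YAP (Yap1) and TAZ (Wwtr1) are paired transcriptional coactivators, and TEAD1 to TEAD4 are the DNA-binding factors through which they act. The genes described here are Yap1, Wwtr1, Tead1, Tead2, Tead3 and Tead4 with 4 target genes, Ctgf, Cyr61, Ankrd1 and Amotl2. They were chosen by symbol and not by a cut on their values, but with earlier results of these data known. The files carry Ctgf and Cyr61 under their newer symbols, Ccn2 and Ccn1, which are used below. All 10 genes were found among the 21829 gene symbols of the files, and all 10 passed a filter of a mean of at least 1 FPKM, the fragments per kilobase of transcript scaled to sequencing depth, as did 10542 genes in all.

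The study edited Gne, which encodes the bifunctional enzyme that starts sialic acid synthesis, in C2C12 cells, an immortalised mouse myoblast line. The data are 2 libraries of C2C12 RNA, 1 of genotype WT and 1 of genotype GNE KO, both from cells grown in serum-containing DMEM with gentamicin. According to the methods, Cas9 and guide plasmids were delivered by electroporation and the KO line was expanded from single-cell clones, so the KO library stands for edited and cloned cells. With 1 library per genotype, no difference below has a replicate check, no p-value is given, and a difference due to the edit cannot be told apart from one between clones or between cultures.

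In the Hippo pathway, the kinases MST1 and MST2 (Stk4 and Stk3) activate LATS1 and LATS2, which phosphorylate YAP and TAZ and keep them in the cytoplasm. When the kinases are less active, for instance in spread cells on a stiff matrix, YAP and TAZ enter the nucleus, bind TEADs and switch on genes such as Ccn1 and Ccn2. In myoblasts YAP is known for promoting proliferation over differentiation. This control acts largely on the proteins and their location, and the values below are RNA levels.

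Gne itself, the targeted gene, was measured at 6.67 FPKM in WT and 7.34 FPKM in KO. An edit that shifts the reading frame need not lower the RNA, so this level is no check of the edit, and the name KO follows the label. The files give no read numbers. From the smallest steps between low values, the libraries were estimated at about 29.8 and 27.5 (in units of 1e6 fragments) for WT and KO. As background, more than 2-fold higher values in the KO library were found for 2.84% of the 10542 filtered genes and more than 2-fold lower values for 3.43%. Of 8 myoblast markers 6 passed the filter, of which 4 were lower by more than 2-fold and 1 was higher by more than 2-fold, and the summed level of all 8 was 246 FPKM in WT and 54.1 FPKM in KO. Myod1, the myogenic master regulator, was at 59.97 FPKM in WT and listed at 0 in KO. Des, Cdh15 and Chrna1 were the other lower genes, Myf5 was the higher one, and Pax7, the satellite cell factor, was listed at 0 in both. Of 6 fibroblast markers 3 passed the filter, of which Col1a1 and Col1a2 were higher by more than 2-fold and 0 lower. The summed level of all 6 was 258 FPKM in WT and 908 FPKM in KO. Nearly all of it was Col1a2, at 237 FPKM in WT and 621 FPKM in KO, and Col1a1, at 9.66 FPKM in WT and 273 FPKM in KO. Pdgfra, the remaining marker past the filter, was nearly level, at 10.8 FPKM in WT and 12.3 FPKM in KO. Dcn, below the filter, was at 0.272 FPKM in WT and 1.68 FPKM in KO, and Thy1 and Lum were listed at 0 in both. The 4 endothelial markers summed to 0.010 FPKM in WT and 0.028 FPKM in KO. The 4 macrophage markers summed to 2.90 FPKM in WT and 1.14 FPKM in KO, nearly all of it Cd68, and Ptprc and Adgre1 were listed at 0 in both. In bulk RNA, a change in the share of cells of one kind and a change in RNA per cell cannot be told apart.

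Ccn2, which encodes the matricellular protein CTGF, was 3.54 times higher in the KO library and was the single gene of the 10 beyond 2-fold. YAP and TAZ RNA were both moderately higher, at 1.49 and 1.65 times the WT level. The TEADs split, with Tead1 higher and Tead3 and Tead4 lower. Ccn1, the most abundant of the 10 genes, was nearly level, and Ankrd1 was slightly lower. The 4 targets therefore differed from each other in direction and size.

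Yap1 was at 33.0 FPKM in WT and 49.3 FPKM in KO. Wwtr1, which encodes TAZ, was at 36.9 FPKM in WT and 60.8 FPKM in KO. Both coactivators were higher in the KO library, with log2 fold changes of 0.56 and 0.71 on the log2(value + 1) scale, which understates the change of low genes. Wwtr1 RNA exceeded Yap1 RNA in both libraries, by a ratio of 1.12 in WT and 1.24 in KO. Their summed level went from 69.9 to 110 FPKM. Yap1 is encoded on chromosome 9, from 7932000 to 8004661 on the minus strand of GRCm39, and Wwtr1 on chromosome 3, from 57363067 to 57483331 on the minus strand.

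All 4 TEAD genes were detected. Tead2, on chromosome 7 from 44865172 to 44883071, was the most abundant in both libraries, at 30.8 FPKM in WT and 27.5 FPKM in KO. Tead1, on the same chromosome from 112278522 to 112506014, was at 16.9 FPKM in WT and 21.7 FPKM in KO. These 2 genes had small log2 fold changes of opposite sign, -0.16 for Tead2 and 0.34 for Tead1. Tead3, on chromosome 17 from 28550645 to 28569791, was at 11.9 FPKM in WT and 7.21 FPKM in KO, a log2 fold change of -0.65. Tead4, on chromosome 6 from 128201251 to 128277786 and known as a MyoD target in muscle cells, was at 8.76 FPKM in WT and 5.45 FPKM in KO, a log2 fold change of -0.60. The less abundant pair was thus lower in the KO library, to a like extent.

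Because FPKM is scaled by transcript length, the TEAD genes can be set against each other. The TEAD sum was 68.3 FPKM in WT and 61.8 FPKM in KO. Tead2 held 45.1% of it in WT and 44.5% in KO. The share of Tead1 was 24.7% in WT and 35.0% in KO. The shares of Tead3 and Tead4 were 17.4% and 12.8% in WT and 11.7% and 8.81% in KO. The mix of TEAD RNA therefore differed more than its amount, toward Tead1 in the KO library. The sum of the coactivators was 1.02 times that of the TEADs in WT and 1.78 times in KO, with the coactivator sum carrying most of that difference.

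**Figure D1:**
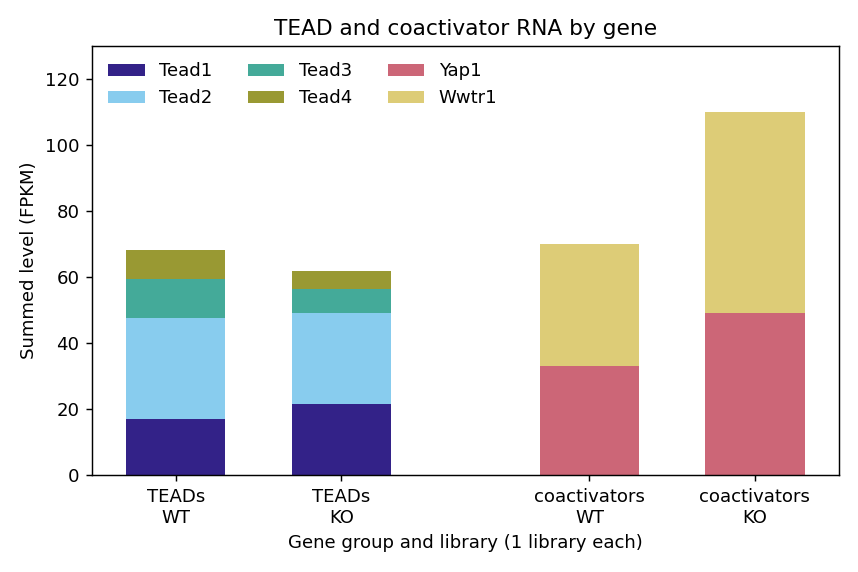
Summed level in FPKM (vertical axis, from 0) of the 4 TEAD genes and of Yap1 with Wwtr1, in the WT and the KO library, 1 library each and no error bars. The TEAD stacks reach 68.3 and 61.8 FPKM with a wider Tead1 segment in KO, and the coactivator stacks reach 69.9 and 110 FPKM.

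Among the targets, Ccn2 lies on chromosome 10, from 24471333 to 24474900 on the plus strand. It was at 17.5 FPKM in WT and 62.1 FPKM in KO, a log2 fold change of 1.77, higher than that of 99.1% of the genes past the filter. Its level passed from above 54.3% of those genes in WT to above 86.0% in KO. By the estimated depth and the length of its longest transcript, these levels correspond to about 1320 fragments in WT and 4310 in KO, so the difference does not rest on a handful of reads.

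Ccn1 encodes CYR61, a secreted matricellular protein of the same family as CTGF. It lies on chromosome 3, from 145352720 to 145355738 on the minus strand. It was at 221 FPKM in WT and 215 FPKM in KO, a log2 fold change of -0.04, and was above 96.5% of the genes in both libraries. The ratio of Ccn2 to Ccn1 was thus 0.079 in WT and 0.289 in KO, with nearly all of the difference on the side of Ccn2.

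Ankrd1 encodes a muscle ankyrin repeat protein of the nucleus and sarcomere. It lies on chromosome 19, from 36089352 to 36097506 on the minus strand, and was at 86.8 FPKM in WT and 72.4 FPKM in KO, a log2 fold change of -0.26. Amotl2 encodes a member of the angiomotin family that binds YAP and holds it back, so that it is both a target and an inhibitor. It lies on chromosome 9, from 102593836 to 102610617 on the plus strand, and was at 29.5 FPKM in WT and 38.4 FPKM in KO, a log2 fold change of 0.37. In WT the targets thus ran, from high to low, Ccn1, Ankrd1, Amotl2 and Ccn2, and in KO Ccn1, Ankrd1, Ccn2 and Amotl2, an order for which there is no replicate spread.

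**Figure D2:**
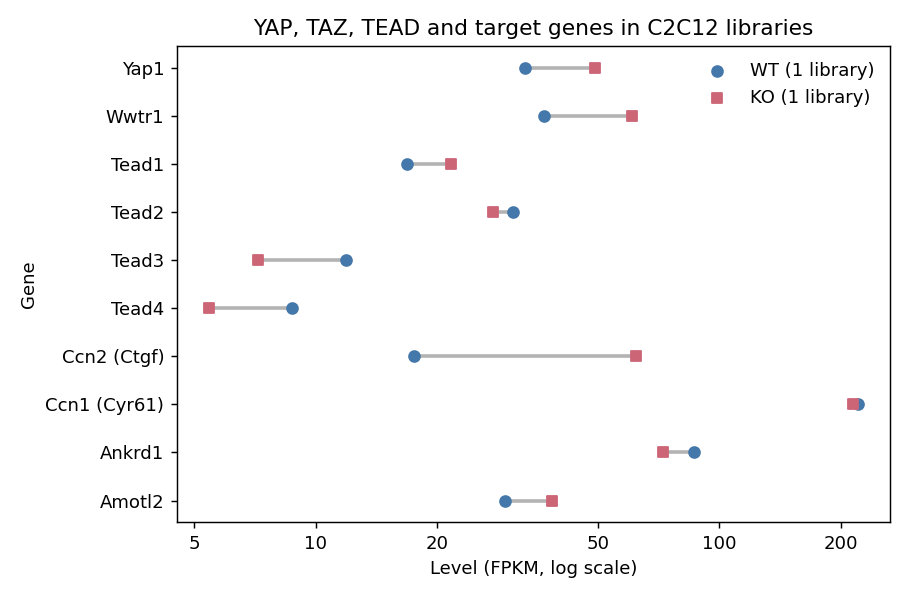
Level in FPKM (horizontal log axis) of the 10 genes in the WT library (circles) and the KO library (squares), 1 library each, with a grey line joining the values of a gene. Ccn2 has the longest line, from 17.5 to 62.1 FPKM, and the 2 Ccn1 points, at 221 and 215 FPKM, nearly coincide.

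TEADs recognise the M-CAT element, whose core reads GGAATG, or CATTCC on the other strand. The promoter windows of the RefSeq table for GRCm38.p6, 250 bases before to 50 after each annotated start, were searched for these letters on both strands. The table held windows for 7 of the 10 genes, and Ccn2, Tead1 and Tead4 had none in it. At least 1 match was found for 6 of the 7, the exception being Tead2, against 16.6% of the 27025 genes of the table. The 7 genes had 10 windows and the 27025 genes 32851, so the windows per gene were unlike. The targets were listed because they are known to answer to TEADs, so a high share among them is not a test. The matches, read along the strand of the gene with the core in capitals and 12 bases on either side, are given for the targets and for Yap1 and Wwtr1, since these are the letters the pathway's own factor is known to bind.
Ankrd1, core starting 210 bases before the start: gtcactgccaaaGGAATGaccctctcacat
Ankrd1, core starting 123 bases before the start: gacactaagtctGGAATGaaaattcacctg
Ccn1, core starting 103 bases before the start: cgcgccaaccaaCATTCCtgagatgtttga
Amotl2, core starting 65 bases before the start: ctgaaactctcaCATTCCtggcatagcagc
Yap1, core starting 141 bases before the start: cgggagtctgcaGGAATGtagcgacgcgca
Wwtr1, core starting 136 bases before the start: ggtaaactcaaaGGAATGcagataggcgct

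In GRCm38.p6 coordinates, the Ankrd1 stretches lie at chr19:36120037-36120066 and chr19:36119950-36119979, the Ccn1 stretch at chr3:145650071-145650100, the Amotl2 stretch at chr9:102717727-102717756, the Yap1 stretch at chr9:8004720-8004749 and the Wwtr1 stretch at chr3:57576029-57576058. All but that of Amotl2 are on the minus strand. Tead3, with 3 annotated starts, held 4 matches. The 250 bases before the start of Ccn1, chr3:145649986-145650235 on the minus strand, are shown as the promoter of the most abundant target, again with the core in capitals.
Ccn1, 250 bases before the start: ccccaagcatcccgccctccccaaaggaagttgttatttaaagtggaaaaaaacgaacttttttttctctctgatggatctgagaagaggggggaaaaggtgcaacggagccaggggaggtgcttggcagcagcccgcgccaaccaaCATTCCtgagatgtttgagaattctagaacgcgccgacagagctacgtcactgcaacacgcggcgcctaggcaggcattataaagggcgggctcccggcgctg

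A match is a description of letters and not evidence of binding. Genes holding the core had log2 fold changes on both sides of 0, from -0.65 for Tead3 to 0.71 for Wwtr1. No binding data were analysed here.

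Set against all genes, 1 of the 10 was higher by more than 2-fold in the KO library, beside 2.84% of the 10542 genes. None of the 10 was lower by more than 2-fold (0 of 10), beside 3.43% of the 10542. The median log2 fold change of the 10 was 0.15, beside 0.0061 for all genes. The middle 50.0% of all genes lay between -0.21 and 0.23 on this scale. Outside that range were 8 of the 10, where 50.0% of all genes were by construction, with 5 above it (Ccn2, Wwtr1, Yap1, Amotl2 and Tead1) and 3 below it (Tead3, Tead4 and Ankrd1). Ccn1 and Tead2 lay inside. The range was taken as a yardstick after the values had been seen, and 10 genes picked for a shared pathway are not a sample of all genes.

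**Figure D3:**
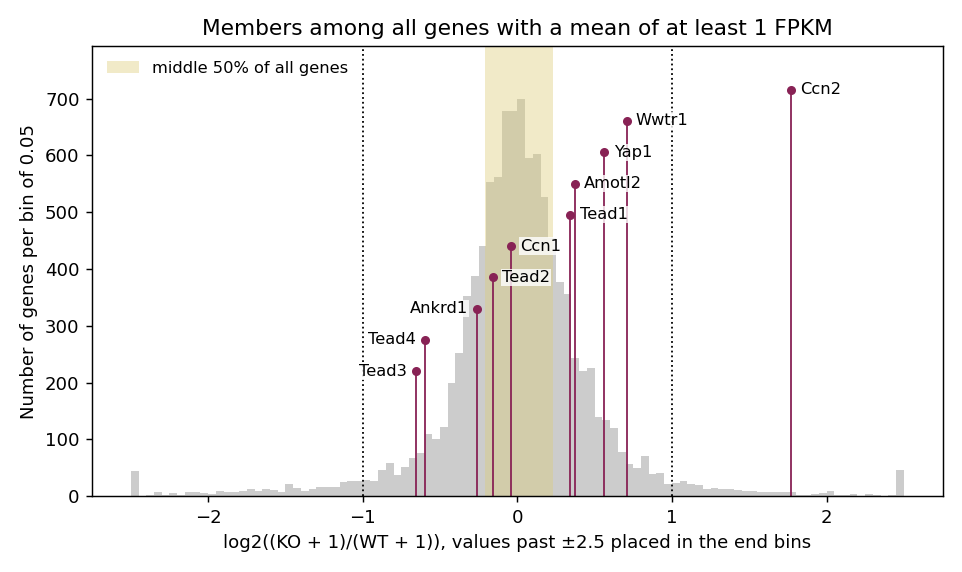
Number of genes (vertical axis) by log2 fold change of KO over WT (horizontal axis, bins of 0.05) for the 10542 genes past the filter, with the middle 50% shaded, 2-fold marked by dotted lines and the 10 genes drawn as stems whose heights only separate the names. Ccn2, at 1.77, is the one stem beyond 2-fold, and Tead3 and Tead4 stand at -0.65 and -0.60.

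Several of these genes lie in stretches of chromosome whose other genes also differed between the libraries. The 26 genes past the filter within 5 Mb of Ccn2 were centred, by their median, on a log2 fold change of 0.35. For Yap1 that neighbour median was 0.27 over 13 genes, for Wwtr1 0.28 over 23 genes and for Ccn1 0.24 over 22 genes. With the neighbour median subtracted, Ccn2 was at 1.42, Wwtr1 at 0.43, Yap1 at 0.30 and Ccn1 at -0.28. The difference of Ccn2 therefore exceeded that of its neighbours by more than 2-fold, while the genes around Yap1 and Wwtr1 were higher in the KO library as well. For Tead3, Tead4, Tead1, Tead2, Ankrd1 and Amotl2 the neighbour medians lay between -0.10 and 0.04, and the log2 fold changes of these genes moved little. DNA copy number was not measured, and its part in these differences was not tested.

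**Figure D4:**
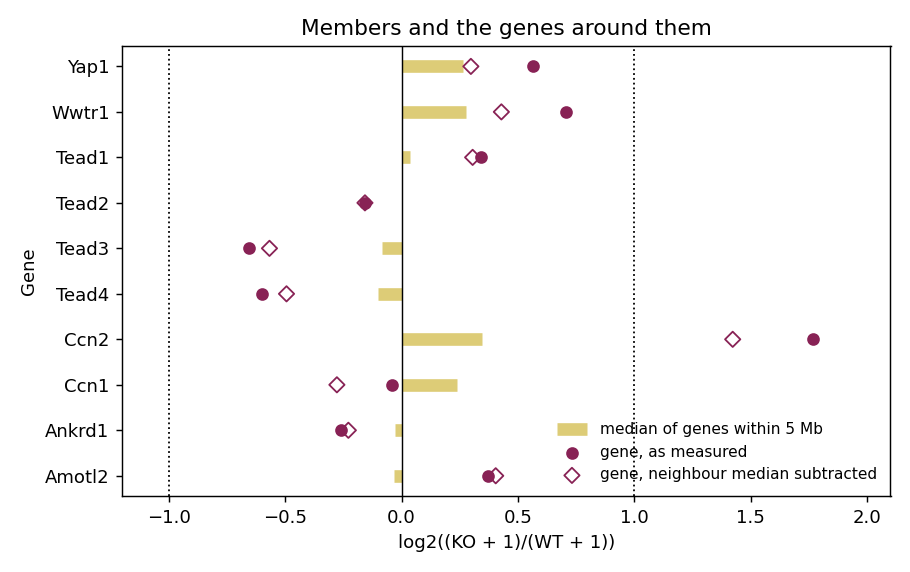
Log2 fold change of KO over WT (horizontal axis) of each of the 10 genes as measured (filled circles) and after subtraction (open diamonds) of the median of the genes within 5 Mb (bars). Bars are widest for Ccn2, Wwtr1, Yap1 and Ccn1, between 0.24 and 0.35, and Ccn2 stays at 1.42.

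The genes that control YAP and TAZ were described in 4 lists. Over all genes 2.84% were higher and 3.43% lower by more than 2-fold, with a median of 0.0061. In lists this short, a count of 0 is near those shares. The 7 genes of the kinase core all passed the filter, and 0 were more than 2-fold higher or lower, with a median log2 fold change of 0.15 and a range from -0.09 to 0.47. Mob1a, which encodes a LATS cofactor, was the most abundant, at 88.3 FPKM in WT and 86.6 FPKM in KO. Sav1, the MST scaffold, was at 48.9 FPKM in WT and 56.1 FPKM in KO. Lats2, itself a YAP target, was at 13.5 FPKM in WT and 14.3 FPKM in KO. The upper end of the range was Lats1, at 16.1 FPKM in WT and 22.8 FPKM in KO.

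Of 13 upstream regulators 11 passed the filter, with a median of 0.070. Again 0 were beyond 2-fold in either direction, beside 2.84% higher and 3.43% lower over all genes. Map4k4, a kinase that acts beside MST, was at 75.8 FPKM in WT and 81.1 FPKM in KO, and Frmd6, a FERM domain protein upstream of the kinases, was at 32.9 FPKM in WT and 29.3 FPKM in KO. Nf2, which encodes merlin, was at 24.8 FPKM in WT and 26.1 FPKM in KO. The ends of the list among genes past the filter, named after their values were seen, were Fat4, a giant cadherin, at 0.731 FPKM in WT and 1.86 FPKM in KO, and Rassf1, at 19.5 FPKM in WT and 11.9 FPKM in KO. Fat4 is a low gene, with a log2 fold change of 0.72 on the log2(value + 1) scale and a plain ratio of 2.54. Wwc1, below the filter, was at 1.16 FPKM in WT and 0.259 FPKM in KO.

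A list of 9 genes held proteins that bind or retain YAP and TAZ and, as with the Ajuba family, proteins that act on LATS. All 9 passed, and 0 were more than 2-fold higher, beside 2.84% of all genes. More than 2-fold lower was 1 gene, beside 3.43% of all genes. That gene was Wtip, a LIM protein of the Ajuba family that holds back LATS, at 13.9 FPKM in WT and 6.13 FPKM in KO, a log2 fold change of -1.06. The most abundant were the 14-3-3 genes Ywhaz, at 354 FPKM in WT and 234 FPKM in KO, and Ywhab, at 126 FPKM in WT and 122 FPKM in KO. The other angiomotins, relatives of Amotl2, were Amot, at 22.3 FPKM in WT and 25.0 FPKM in KO, and Amotl1, at 10.9 FPKM in WT and 17.7 FPKM in KO. All 3 angiomotin genes were higher in the KO library, each by less than 2-fold. Amot, at a log2 fold change of 0.16, lay inside the middle 50% of all genes. The genes within 5 Mb of Amot had a median of 0.19, and those within 5 Mb of Amotl1 had a median of 0.38.

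The vestigial-like proteins compete with YAP and TAZ for TEADs. Vgll3 was at 13.8 FPKM in WT and 17.3 FPKM in KO and Vgll4 at 18.5 FPKM in WT and 16.5 FPKM in KO, so that neither was beyond 2-fold. Vgll2, the muscle member, was at 0.167 FPKM in WT and listed at 0 in KO, and Vgll1 was listed at 0 in both.

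A wider list of 24 genes known as YAP, TAZ or TEAD targets was spread around 0. Of its 21 genes past the filter, 0 were higher by more than 2-fold and 1 was lower by more than 2-fold. Over all genes these shares were 2.84% and 3.43%, so both counts are near them. The median of the list was 0.049, beside 0.0061 over all genes, with 12 genes above 0 and 9 below. Amotl1, Ptpn14 and Lats2, at log2 fold changes of 0.65, 0.50 and 0.08, also belong to the control lists above and are counted again here. Rbms3, a low gene named after its values were seen, was at 0.565 FPKM in WT and 1.865 FPKM in KO. Its log2 fold change was 0.87 on the log2(value + 1) scale and its plain ratio 3.30. Axl, a receptor tyrosine kinase and the most abundant of the list by its mean over both libraries, was at 117 FPKM in WT and 169 FPKM in KO. Birc5, which encodes survivin, was at 137 FPKM in WT and 142 FPKM in KO. The lower gene was Igfbp3, a secreted binding protein of IGF, at 37.2 FPKM in WT and 0.052 FPKM in KO. Thbs1, a secreted matrix protein named after its values were seen, was at 111 FPKM in WT and 140 FPKM in KO.

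In the CCN family, to which Ccn1 and Ccn2 belong, the members likewise went different ways. Ccn3 (Nov) was at 0.847 FPKM in WT and 4.18 FPKM in KO, a log2 fold change of 1.49. Ccn4 (Wisp1) was at 29.3 FPKM in WT and 39.1 FPKM in KO. Ccn5 (Wisp2), which lacks the C-terminal module of the other family members, was at 6.01 FPKM in WT and 2.37 FPKM in KO, a log2 fold change of -1.06, and Ccn6 (Wisp3) was listed at 0 in both. Of the 6 genes, Ccn2 and Ccn3 were thus beyond 2-fold higher and Ccn5 beyond 2-fold lower. The shares over all genes were 2.84% and 3.43%. The relatives of Ankrd1 were scarce, Ankrd2 at 0 and 0.074 FPKM and Ankrd23 at 0.540 and 0.949 FPKM.

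SRF and its MRTF coactivators control contractile and cytoskeletal genes and answer to the same cues from adhesion and actin. Of 12 genes on a list of their targets 11 passed the filter. In the KO library 3 were higher by more than 2-fold and 0 lower, with a median of 0.43 and 10 genes above 0, beside 2.84% higher, 3.43% lower and a median of 0.0061 over all genes. Acta2, smooth muscle actin, was at 213 FPKM in WT and 544 FPKM in KO. Tagln was at 20.3 FPKM in WT and 54.5 FPKM in KO, and Myl9 at 14.4 FPKM in WT and 30.4 FPKM in KO. Actb, the most abundant gene of the list in both libraries, was at 3318 FPKM in WT and 2974 FPKM in KO, and Actg1 at 1414 FPKM in WT and 1812 FPKM in KO. Both have processed pseudogenes with which reads can be shared. The contractile genes beyond 2-fold and Ccn2 were higher in the same library, as were the fibroblast markers Col1a1 and Col1a2 given above, and the part of either in the level of Ccn2 was not tested.

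**Figure D5:**
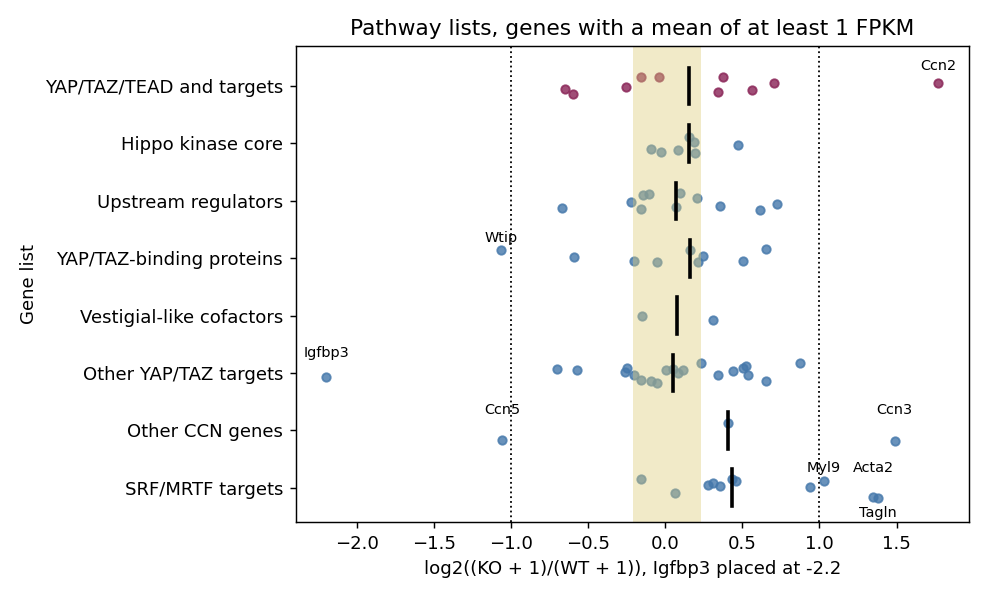
Log2 fold change of KO over WT (horizontal axis) of the genes past the filter in 8 lists (rows), 1 point per gene with a black bar at the median, the middle 50% of all genes shaded and 2-fold marked by dotted lines. The lists of the kinase core, upstream regulators, YAP/TAZ-binding proteins, vestigial-like cofactors and other targets hold 0 genes more than 2-fold higher on this scale. The members and the other CCN genes hold 1 each and the SRF/MRTF list 3, where 2.84% of all genes were more than 2-fold higher. More than 2-fold lower were Wtip, Igfbp3 and Ccn5, where 3.43% of all genes were. Igfbp3, with a log2 fold change of -5.18, is drawn short of its value.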

How the data were processed

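The authors deposited 1 value per gene symbol for each C2C12 library, with no unit named. The deposited values were taken as FPKM, because they are not whole numbers, their column totals differ between the libraries, and low values step with transcript length. The submitters' processing notes name Trim Galore 0.6.6, STAR 2.7.9a and RSEM 1.3.3. The methods and the notes differ on the STAR version, the mouse build, the library kit and the read length. No count model was used and no test was possible with 1 library per genotype.

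Where a symbol was repeated, its more abundant row was used. Fold changes were log2((KO + 1)/(WT + 1)) for genes averaging at least 1 FPKM, and more than 2-fold means beyond 1 on this scale. Depth was estimated from genes with 1 annotated transcript longer than 1500 bp, as the median FPKM times kilobases (length less 200 bp) at the lowest mode, over 41 genes in WT and 45 in KO. These settings were chosen after the values were seen. Gene positions came from GENCODE vM39 on GRCm39. Promoter windows came from RefSeq on GRCm38.p6. Named genes were the 10 members, Gne, pathway-list genes beyond 2-fold past the filter and the 2 genes of each pathway list with the highest mean. Cell type markers were named beside their counts. Lats1, Lats2, Nf2, Wwc1, Amot, Amotl1, Ptpn14 and the scarce cofactor, CCN and ankyrin genes, like those marked in the text, were added after their values were seen. The members and the lists were chosen with earlier results of these data known. The fold change code was tested on simulated data. Python 3.11.15, numpy 2.4.6 and pandas 2.3.3 were used.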

Additional observations from a re-analysis of the deposited data

How the results depend on the processing

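The 8 alternatives were no filter, a minimum mean of 5 FPKM, a pseudocount of 0.1 or of 5, scaling by the median of ratios, scaling to the same column total, subtraction of the neighbour median, and summing of repeated symbols. Under each of them 1 of the 10 genes was more than 2-fold higher and 0 were more than 2-fold lower, and 8 or 9 lay outside the middle 50% of all genes. The latter count was added after the data were seen. Ccn2 ranged from 1.42 to 1.82 on the log2 scale. No single gene changed its direction in 80 comparisons, but many of these could not have shown a change. A pseudocount or a filter cannot alter a sign, and summing repeated symbols left the values of all 10 genes as they were. The scalings multiplied the KO values by 0.991 and 0.990, too little to change the direction of any of the 10 genes. Only the subtraction of the neighbour median could have changed a direction. Subtraction of the neighbour median moved 4 genes most, to 1.42 for Ccn2, 0.43 for Wwtr1, 0.30 for Yap1 and -0.28 for Ccn1. Leaving out a library was not possible with 1 per genotype. No paired analysis was possible because each genotype has 1 library. The number of fragments is an estimate, so no counting interval is given, and the variation between cultures is unknown.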
